A study of Caenorhabditis elegans with 4 samples.

Results

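The 404 regions of chromosome IV that were called as bound by CES-1 are described here, chosen as every region of the deposited combined list that lies on IV, out of 2713 in the whole list. CES-1 is a zinc-finger transcription factor of the Snail family, a family that binds E-box sequences and often represses its target genes. In C. elegans it is best known from programmed cell death, where it blocks transcription of the pro-apoptotic gene egl-1 in the lineage of the pharyngeal NSM neurons. Chromosome IV is an autosome with gene-rich central DNA and more repetitive outer parts, and it is the chromosome of the piRNAs (21U-RNAs), small RNAs that guide Piwi proteins in the germline. In the RefSeq annotation (assembly WBcel235), 14714 of 15363 piRNA genes (95.8%) and 3281 of 19983 protein-coding genes (16.4%) are assigned to IV.

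Binding was measured by ChIP-seq, in which DNA crosslinked to the tagged protein is collected with an antibody and sequenced. All 4 libraries came from hermaphrodites of strain OP174 at the L3 larval stage, grown at 20 °C and treated with 2% formaldehyde. The strain has the unc-119(ed3) mutation. It also has wgIs174, a transgene (ces-1::TY1 EGFP FLAG;unc-119) that adds tags to CES-1 and carries an unc-119 rescue copy, introduced by bombardment. The labels state that the fusion is made where and when ces-1 normally is, and they list no mutation of the endogenous ces-1 gene. Both ChIP libraries used a goat antibody against EGFP, and both input libraries are whole-extract DNA of the same strain. No ChIP from worms without the tag is among these samples, so signal that does not depend on CES-1 was not measured. Nothing in the labels says that the replicates were separate cultures, so their agreement may reflect technical spread alone.

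The ChIP libraries held 873921 uniquely mapped reads in replicate 1 and 1320404 in replicate 2, and the inputs 1535649 and 907103. Replicate 2 thus had 1.51 times the usable ChIP reads of replicate 1. Each region carries a score, here −log10 of the q-value that the authors' peak caller gave it, so a score of 2 stands for a q-value of 0.01. Scores grow with read depth. They are used to describe and rank regions within a list, and as bands or cut-offs in the fits. Where scores of the replicates are set side by side, the comparison is a description only, since the 2 libraries differ in depth. Positions are WS220 coordinates. Genes, exons and regulatory sequence were not assigned to them, because no annotation or genome of that build was used here.

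The few strongest CES-1 regions of IV lay outside the central 50% of the chromosome. This held for the 5 highest-scoring regions and for 6 of the highest 10, against 162 of all 404, and was not tested. The first was IV:14032619-14034584, which was also the widest on IV with 1966 bp. Its score was 35.9 in the combined list, 12.8 in replicate 1 and 15.6 in replicate 2. Next came IV:13240478-13240883, just outside the central part at 76.6% of the extent, with 25.2 in the combined list and 9.23 and 15.5 in replicates 1 and 2. In both of these regions replicate 2 had the higher score.

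The region at IV:17232886-17233815, at 99.7% of the way along the measured extent of the chromosome, scored 20.6 in the combined list. It went the other way between the libraries, with 9.16 in replicate 1 and 5.86 in replicate 2. IV:15016888-15017343 scored 19.0, with nearly equal values of 8.64 and 8.74 in replicates 1 and 2. On the left side of the chromosome, IV:1765975-1766319 scored 16.25, with 4.52 in replicate 1 and 10.65 in replicate 2. Of these 5 regions, 1 thus had the higher score in the shallower library.

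The next 5 regions scored between 12.65 and 15.55 in the combined list. They were IV:4585946-4586353 (7.08 and 6.50 in replicates 1 and 2), IV:9091977-9092408 (5.41 and 8.76), IV:654754-655097 (3.80 and 9.22), IV:11691852-11692477 (6.27 and 5.51) and IV:11593363-11594660 (3.22 and 4.51). Only IV:654754-655097 among these 5 lay in an outer part. In all, 20 regions of IV scored above 10, and all 20 were called in both replicates. On II, III, V and X, 102 regions scored above 10, of which replicate 1 called 100 and replicate 2 all 102. Of the 20 on IV, 11 were central and 9 outer, so beyond the leading regions the outer position did not persist. Among the 60 regions that scored above 6, 55.0% were central (95% Wilson interval 42.5 to 66.9), against 59.9% of all 404 (55.05 to 64.6).

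Some wide regions of IV resolved into separate parts in the single replicates. Of the 404 regions, 4 covered more than 1 region of a replicate list, and each of these had a combined score above 10. The leading region held a narrow part and a wide part in both replicates. Replicate 1 had IV:14032685-14032968 with a score of 3.24 and IV:14033244-14034446 with 12.8. Replicate 2 had IV:14032707-14032950 with 3.15 and IV:14033155-14034673 with 15.6. The narrow left part and the dominant right part therefore had the same order in both libraries.

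A second region with parts in both replicates was IV:8431552-8433056, 1505 bp wide with a combined score of 11.3. Its parts were IV:8431552-8431791 (score 2.08) and IV:8432686-8432921 (2.02) in replicate 1. In replicate 2 they were IV:8431673-8431942 (3.33) and IV:8432819-8433018 (2.12). The merged region ranked 13 on IV, and 3 of its 4 parts scored close to the calling limit of 2. In the remaining 2 regions the split appeared in a single replicate, in replicate 2 at IV:17232886-17233815 and in replicate 1 at IV:11593363-11594660.

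Most regions of IV were narrow and weak, as were those of II, III, V and X. The median width was 219 bp (quartiles 152 and 320) and the median score 3.24 (quartiles 2.53 and 4.76). On the other chromosomes the median score was 3.07 to 3.22, so that of IV was the highest of the 5, a difference that was not tested. Together the regions of IV covered 102873 bp, or 0.595% of the 17.3 Mb up to the last combined region. Only 24 regions reached 500 bp and 4 reached 1000 bp. At the other end, 36 regions (8.91%, against 9.69% on II, III, V and X pooled) were narrower than 50 bp. These 36 had a median score of 2.18 and a highest score of 3.52. The narrowest was a single base at IV:12996211, with a score of 2.35. None of these 36 was called in replicate 1, and 9 were called in replicate 2. The weakest regions of the list, at IV:5725404-5725415 and IV:646969-647025, scored 2.00.

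**Figure D1:**
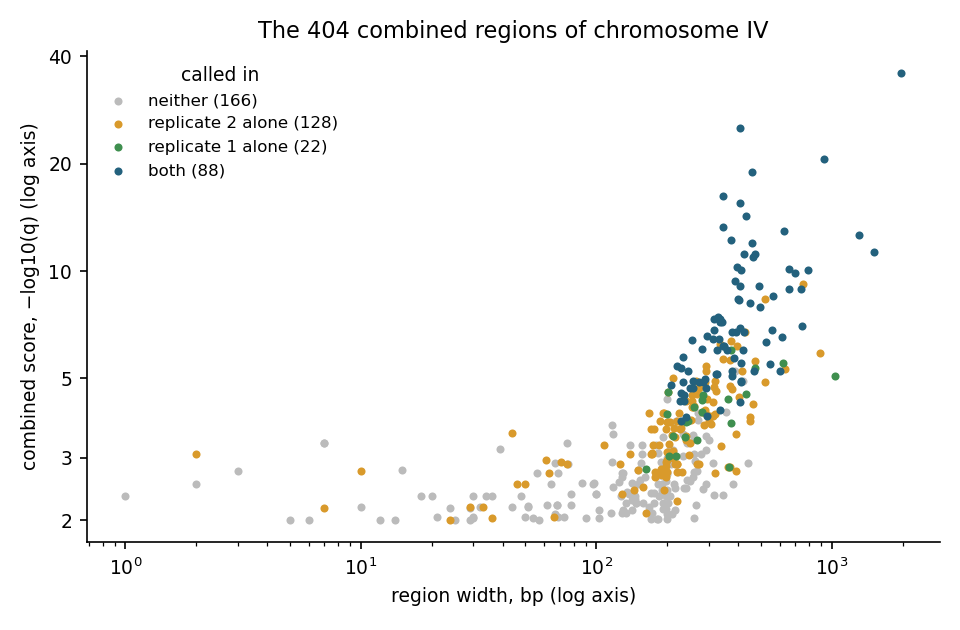
Width in bp against combined score, −log10(q), for the 404 regions of chromosome IV, both on log axes, coloured by the replicate lists that hold an overlapping region. The 88 regions called in both replicates sit at the upper right, where the median score is 6.55 and the median width 381 bp; the 166 called in neither have medians of 2.47 and 156 bp and include 27 of the 36 regions under 50 bp.

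Width did not set IV apart from II, III, V and X pooled, whose median was also 219 bp. With bands of score as a covariate, the difference of IV from them was 0.01 on the log2 scale (95% interval −0.10 to 0.11; linear regression, n = 2313 regions with standard errors clustered in 87 windows of 1 Mb, p = 0.886). That average joins chromosomes on either side. Regions of IV were wider than those of III by 0.22 log2 units (0.09 to 0.34; linear regression, n = 860 regions, p adjusted over 4 chromosomes = 0.00402). They were narrower than those of V by 0.18, a difference of −0.18 log2 units (−0.30 to −0.05; n = 812 regions, adjusted p = 0.0106). Against II the difference was 0.10 (−0.07 to 0.27) and against X −0.10 (−0.23 to 0.02).

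By whole windows of 1 Mb along the chromosome, CES-1 regions were densest in a few central stretches. The 17 whole windows of 1 Mb held between 11 and 39 regions, with a median of 21. The fullest were the window from 7 to 8 Mb with 39 regions, that from 10 to 11 Mb with 38 and that from 11 to 12 Mb with 35. Between them, the window from 9 to 10 Mb held 17. The emptiest was an outer window on the left, from 3 to 4 Mb, with 11, followed by the last 2 whole windows on the right with 13 each. A further 10 regions, among them IV:17232886-17233815, lay beyond the last whole window and are in none of these counts. They fell in the short remainder of the 17.3 Mb extent, so the right end itself was not sparse. The central part was thus uneven within itself, and the 4 outer windows on the right held 13 to 21.

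There were 27.9 ± 7.74 regions per central window (SD, n = 9) and 17.9 ± 5.22 per outer window (SD, n = 8). These windows hold 394 of the 404 regions, and the 10 left out, beyond the last whole window, are all outer. By exact position, 242 of the 404 were central and 162 outer. The ratio of central to outer windows was 1.56 (95% interval 1.15 to 2.11, quasi-Poisson regression of window counts), an excess in the centre that the interval separates from 1. In the replicate 1 list alone the ratio was 1.60, but its interval (0.981 to 2.59) includes 1, and in the replicate 2 list it was 1.39 (1.03 to 1.87). The outer windows of the left side held 19.8 ± 6.29 regions (SD, n = 4) and those of the right side 16 ± 3.83 (SD, n = 4). The centre-to-outer ratio on IV was 0.880 times that on II, III and V, with an interval of 0.568 to 1.36, so a difference between IV and these autosomes was not detected. On the single autosomes the ratio was 1.69 on II, 1.47 on III and 2.37 on V. Differences in how well 36 bp reads can be placed in central and outer DNA were not measured.

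The piRNA-rich domains of IV held fewer regions per window, by less than the spread between windows allows to call. Most piRNA genes are known to lie in 2 broad domains of IV, and the 5 whole windows from 5 to 7 Mb and from 14 to 17 Mb were taken to represent them. Any part of the domains outside these 5 windows is counted with the other 12. The 5 windows held 18.4 ± 5.90 regions (SD, n = 5), and the other 12 held 25.2 ± 8.49 (SD, n = 12). With central or outer position in the fit the ratio was 0.788, with an interval of 0.566 to 1.095, which includes 1. Most of the lower count came from the outer domain, where 3 windows held 14.3 ± 2.31 regions against 20.0 ± 5.48 in the 5 other outer windows (SD). The 2 windows of the central domain held 23 and 26 regions, within the range of 17 to 39 in the other central windows. Of the 49 regions in that central domain, 69.4% were called in at least 1 replicate (Wilson interval 55.5 to 80.5), against 53.96% (47.1 to 60.7) of the 202 in the other central windows. In the outer domain the order was the opposite, with 53.5% (38.9 to 67.5) of 43 regions called, against 62.0% (52.2 to 70.9) of the 100 in the other outer windows. In both cases the intervals, which cover counting error only, overlap.

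**Figure D2:**
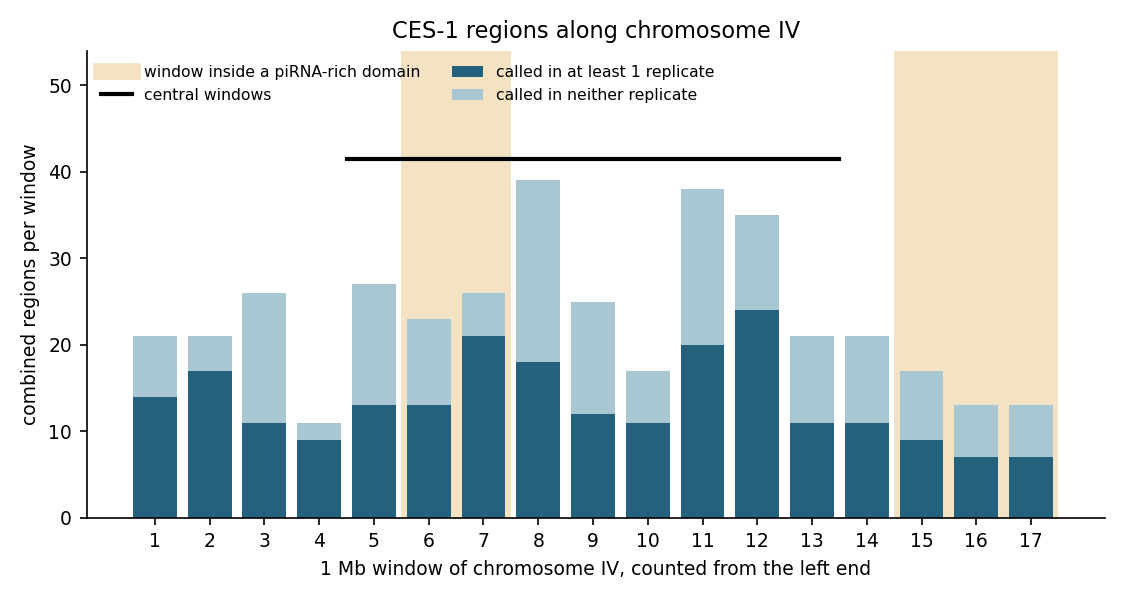
Number of combined CES-1 regions in each of the 17 whole 1 Mb windows of chromosome IV, counted from the left end, split into regions called in at least 1 replicate (dark) and in neither (light); shading marks the 5 windows inside piRNA-rich domains and the black line the 9 central windows. Windows 8, 11 and 12 hold 39, 38 and 35 regions, and the last 2 windows hold 13 each. The 10 regions beyond the last whole window are not shown.

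Regions of IV seldom crowded together, and a difference in this from II, III, V and X pooled was not detected. The median distance between neighbouring centres was 19827 bp (quartiles 4892 and 59250). Of the 404 regions, 37 (9.16%, Wilson interval 6.72 to 12.4) had another centre within 1 kb, against 10.2% of all regions on II, III, IV, V and X. These 37 formed 17 pairs and 1 group of 3. The group of 3, from IV:10935235 to 10937179, consisted of a region with a score of 10.3 that both replicates called and 2 neighbours with scores of 2.89 and 2.52 that neither called. The odds of a close neighbour on IV relative to II, III, V and X were 0.871 (0.548 to 1.39; logistic regression clustered by window, n = 2313 regions, p = 0.561). Among fixed windows of 100 kb counted from the left end, the fullest ran from IV:10500001 to 10600000. It held 10 regions, of which 8 were called in a replicate and 4 in replicate 1. Stretches that cross the edges of these windows were not counted and can be fuller. The longest stretch with no combined region ran for 426974 bp, from IV:16049103 to 16476076.

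The combined list held fewer regions per Mb on IV than on III or X. IV had 23.4 regions per Mb, against 33.2 on III, 33.6 on X, 29.6 on II and 19.5 on V. In 1 Mb windows the density on IV was 0.686 times that on X (95% interval 0.562 to 0.838; quasi-Poisson regression, n = 34 windows, p adjusted over 4 chromosomes = 0.0022) and 0.721 times that on III (0.567 to 0.917; n = 30 windows, adjusted p = 0.0187). The ratio was 0.780 to II (0.570 to 1.06; n = 32 windows, adjusted p = 0.152) and 1.19 to V (0.867 to 1.64; n = 37 windows, adjusted p = 0.270). Against II, III, V and X pooled it was 0.825 (0.647 to 1.05; n = 82 windows, p = 0.116, adjusted over the 9 fits of this kind = 0.257). Without V, the sparsest of these chromosomes, the pooled ratio was 0.725 (n = 62 windows, p = 0.00308). Per 100 protein-coding genes that RefSeq assigns to the chromosome, IV held 12.3 regions, II 13.1, III 17.3, V 8.17 and X 21.7, so IV was second lowest by this measure too.

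In the replicate lists the density of IV lay within the range of the single chromosomes. There were 114 regions of IV in replicate 1, or 6.59 per Mb, and 226 in replicate 2, or 13.1 per Mb. The pooled chromosomes II, III, V and X had 6.67 and 12.9 per Mb. The ratio of IV to them was 0.97 in replicate 1 (0.710 to 1.33) and 1.003 in replicate 2 (0.795 to 1.26; quasi-Poisson regression, n = 82 windows, p = 0.855 and 0.983). These intervals include the 0.825 of the combined list. As in that list, III and X were denser than IV and V sparser, with 7.80, 9.02 and 4.50 regions per Mb in replicate 1 and 16.4, 15.3 and 9.20 in replicate 2. II had 5.90 and 11.9. Whether the ratio differs between the combined and the replicate lists was not tested as such, since the lists share reads.

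Regions of IV were called in replicate 2 more often than those of II and X, while a difference from III and V, or in replicate 1, was not detected. Of the 404, 110 were called in replicate 1 (27.2%, Wilson interval 23.1 to 31.8), against 23.9% of all regions on II, III, IV, V and X. In replicate 2, 216 were called (53.5%, 48.6 to 58.3), against 45.7%. At least 1 replicate called 238 (58.9%, 54.05 to 63.6), against 51.6%, and both called 88 (21.8%, 18.03 to 26.1), against 18.0%. The remaining 166 (41.1%) were called in neither, against 49.9% on II, III, V and X pooled. These shares are taken over the same combined regions as the density of IV, so share and density are not separate observations. The combined list was made from the reads of both replicates, so a call in a replicate is not independent evidence for a region.

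Because support rises with the score, regions were compared within score bands. The odds of a call in replicate 2 were 1.60 times as high on IV as on II, III, V and X (95% interval 1.19 to 2.16; logistic regression clustered by window, n = 2313 regions, p = 0.00203, adjusted over 9 fits = 0.0137). For a call in at least 1 replicate the odds ratio was also 1.60 (1.17 to 2.19; n = 2313 regions, p = 0.00304, adjusted 0.0137). For replicate 1 it was 1.22 (0.899 to 1.66; n = 2313 regions, p = 0.200, adjusted 0.300), which does not separate IV from the others. Among the n = 1249 regions that scored 3 or more, the ratio was 1.37 for replicate 2 (p = 0.0973) and 1.51 for either (p = 0.0664), and both calls were lost.

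The shares differed between bands, a pattern that was not tested. Between scores of 2.5 and 3, replicate 2 called 33 of 83 regions on IV (39.8%, Wilson interval 29.9 to 50.5) and 25.9% (21.7 to 30.6) of those on II, III, V and X. That pooled share joins 36.7% on III, close to IV, with 27.2% on V, 20.9% on X and 20.0% on II. Between 3 and 4 it called 48 of 85 (56.5%, 45.9 to 66.5), against 42.5% (38.05 to 47.2), with V at 48.4% and III at 46.6%. Between 2 and 2.5 it called 12 of 97 (12.4%, 7.22 to 20.4), against 6.82%. From 4 to 6 the shares were 81.0% and 82.97%, and above 6 they were 98.3% and 98.8%. Replicate 1 called 0 of the 97 weakest regions, which allows a share of up to 3.81% by the Wilson interval. From 4 to 6 it called 42 of 79 on IV (53.2%, 42.3 to 63.8), against 40.1% (34.8 to 45.6).

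**Figure D3:**
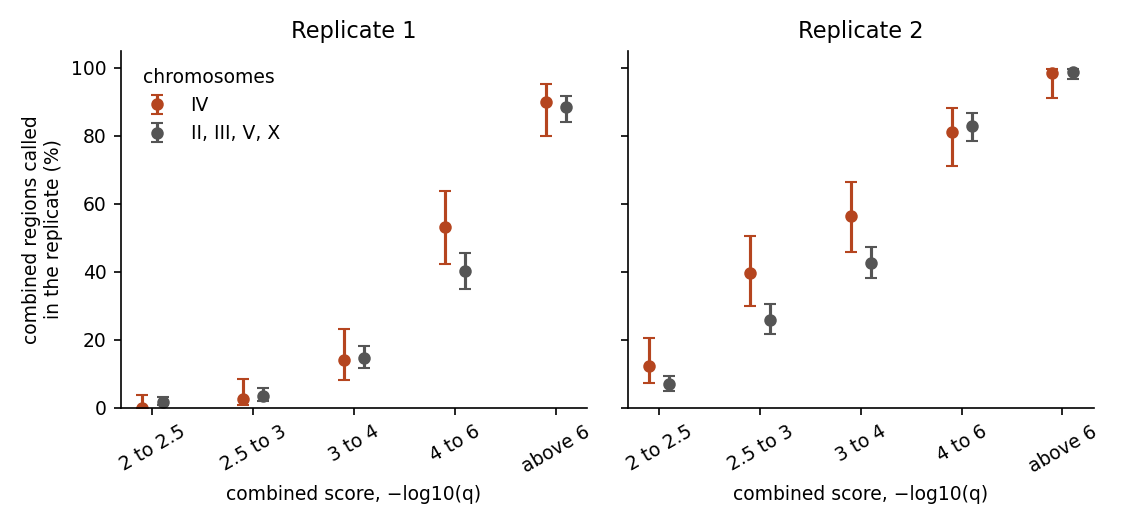
Percentage of combined regions that overlap a region of replicate 1 (left) or replicate 2 (right) in 5 bands of combined score, for chromosome IV and for II, III, V and X pooled; points are shares and bars 95% Wilson intervals. In replicate 2, IV lies above the other chromosomes in the 3 bands below a score of 4 (39.8% against 25.9% from 2.5 to 3), and the shares meet above 4.

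Set against single chromosomes, IV had higher odds of a call in replicate 2 than II and X. The odds ratio was 1.92 against II (1.32 to 2.80; logistic regression clustered by window, n = 856 regions, p adjusted over 4 chromosomes = 0.00129) and 1.82 against X (1.30 to 2.56; n = 997 regions, adjusted p = 0.00129). Against III it was 1.27 (0.913 to 1.78; n = 860 regions, adjusted p = 0.155) and against V 1.37 (0.945 to 1.98; n = 812 regions, adjusted p = 0.130). Other chromosomes also departed from the rest, in both directions. For replicate 2 the odds were 0.711 on II (0.537 to 0.943) and 0.747 on X (0.585 to 0.954), each against the 4 others. For a call in at least 1 replicate they were 1.30 on III (1.06 to 1.60), above 1 as on IV. IV is a single chromosome, so the spread between chromosomes as such enters none of these intervals.

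**Figure D4:**
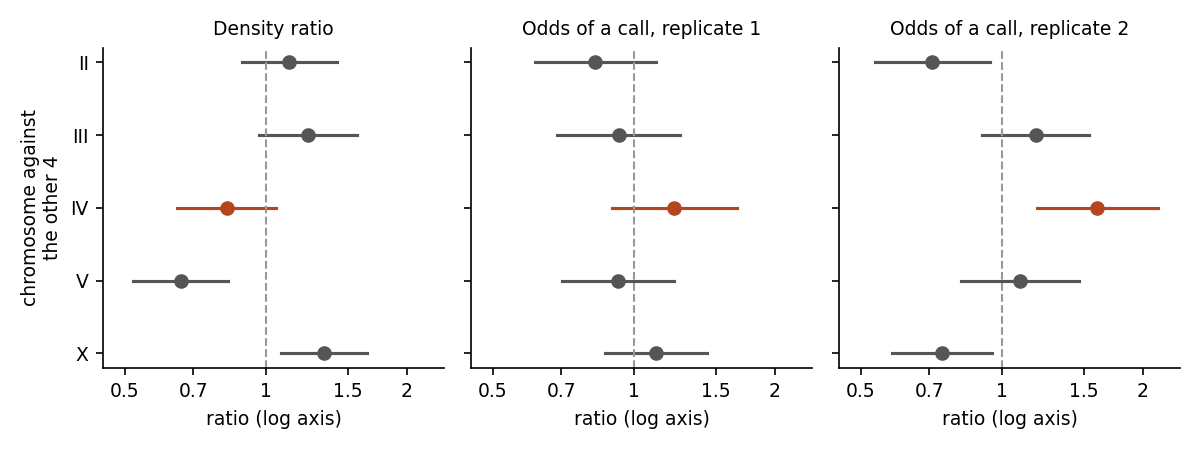
Ratio of each of the chromosomes II, III, IV, V and X to the 4 others, on log axes, for the density of combined regions in 1 Mb windows and for the odds that a combined region was called in replicate 1 or replicate 2 within score bands; bars are 95% intervals. IV stands at 0.825 for density and at 1.22 and 1.60 for the odds, where the interval of the last lies above 1.

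Within IV, the share of supported regions was close in the centre and the outer parts. Of the regions in the central windows 57.0% were called in a replicate (Wilson interval 50.8 to 62.95), and in the outer windows 59.4% (51.2 to 67.1). The share was 64.6% (53.6 to 74.2) on the outer left and 53.1% (41.1 to 64.8) on the outer right. Variation of support between the single windows was not tested.

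The regions of IV that neither replicate called included moderate ones. The highest-scoring were IV:8794931-8795319 with a combined score of 5.26, IV:14260695-14261115 with 4.91 and IV:7224899-7225098 with 4.38. Every one of the 71 regions above a score of 5.5 was called in a replicate. On II, III, V and X, so was every one of the 259 regions above a score of 6. Replicate 2 alone called 128 regions of IV (31.7%, against 26.9% on II, III, V and X pooled). They had a median score of 3.51 and reached 9.22. Replicate 1 alone called 22 (5.45%, against 6.02%), with a median of 3.99 and a highest score of 6.00. The median of the 88 called in both was 6.55.

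In the replicate lists, most replicate 1 regions of IV had a match and most replicate 2 regions had none. The same order held on each of II, III, V and X. With 226 regions on IV against 114 in replicate 1, only part of the replicate 2 regions could each have a partner of their own. Of the 114 replicate 1 regions, 91 (79.8%, Wilson interval 71.5 to 86.2) overlapped a replicate 2 region, against 73.6% (69.3 to 77.4) on II, III, V and X. Of the 226 replicate 2 regions, 92 (40.7%, 34.5 to 47.2) overlapped one of replicate 1, against 38.1% (34.96 to 41.4). The centres of the 91 matched pairs lay a median of 42.5 bp apart (quartiles 19.0 and 83.2), and 73 pairs lay within 100 bp. On the other chromosomes this median was 27.5 to 40 bp, so that of IV was the largest of the 5, a difference that was not tested. The pairs were chosen for overlap, which itself keeps the distances small. A single merged input was the control of both lists, and its part in the overlap was not tested.

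The scores of those matched regions were only loosely related between the replicates. Across the 91 pairs Spearman's rho was 0.31 and Pearson's r 0.66, and without the 2 highest replicate 1 scores they were 0.26 and 0.41. On II, III, V and X rho was 0.53, 0.70, 0.60 and 0.65 over 62, 73, 73 and 123 pairs. These values are descriptions across regions that share both libraries, and their difference was not tested. The pairs of IV were also weaker, with median scores of 2.69 in replicate 1 and 3.34 in replicate 2, against 3.06 and 3.84 on the pooled chromosomes. On II the medians were 2.70 and 3.33. The part of score level in the correlation was not tested.

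Both directions contributed to the scatter. In 57 of the 91 pairs the score was higher in replicate 2 (62.6%, Wilson interval 52.4 to 71.9), against 71.3% (66.2 to 75.9) on the pooled chromosomes. The largest excess of replicate 2 was at IV:13240507-13240879, where its score was 6.23 above that of replicate 1, followed by IV:1766024-1766276 with 6.13. The largest excess of replicate 1 was at IV:17232915-17233791, where replicate 2 was lower by 3.30 (a difference of −3.30). Next was IV:6321780-6322064, with 4.51 in replicate 1 and 2.17 in replicate 2.

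**Figure D5:**
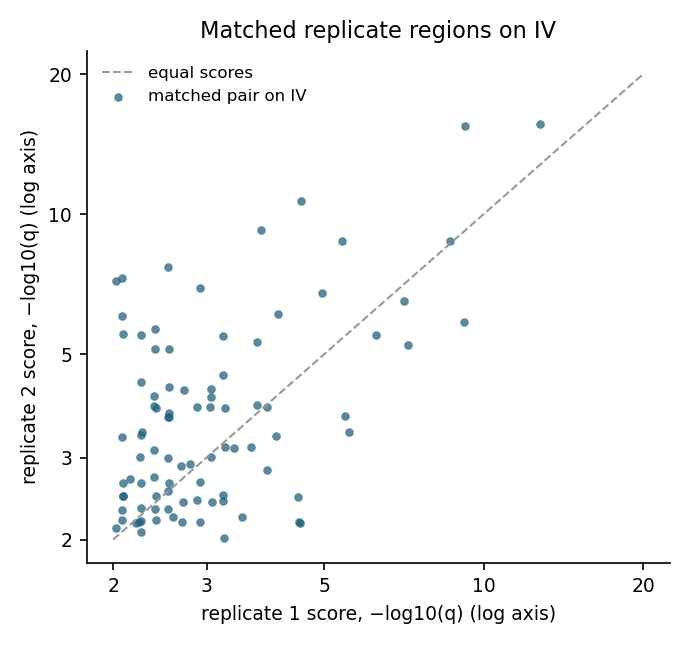
Score, −log10(q), of the 91 replicate 1 regions of chromosome IV that overlap a replicate 2 region, against the score of that region in replicate 2, both on log axes; the dashed line marks equal scores. Replicate 2 is higher in 57 pairs, and pairs with replicate 1 scores near 2 span replicate 2 scores up to 7.28.

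In each list the unmatched regions had a lower median score than the matched ones, but some scored well above the calling limit of 2. The highest-scoring of each list are named here, so their high scores follow from that choice. Without a match in replicate 1, the highest replicate 2 regions were IV:2219290-2219750 with a score of 6.19 (8.34 in the combined list), IV:3160924-3161479 with 5.49 (9.22) and IV:4570660-4571003 with 5.03 (6.17). Without a match in replicate 2, the highest replicate 1 regions were IV:11809537-11810105 with 4.46 (5.36 combined), IV:7619074-7619447 with 3.74 (6.00) and IV:5974051-5974469 with 3.22 (3.76). The 134 unmatched replicate 2 regions had a median score of 2.35, and the 92 matched ones 3.35. The 23 unmatched replicate 1 regions had a median of 2.55, close to the 2.69 of the 91 matched ones.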

How the data were processed

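The deposited files are 3 lists of regions and a sample table. Per the file headers, the authors called the regions with PeakSeq in WS220 coordinates, and comments on a liftover name regions of II and III and none of IV. Each region has the q-value (p-value corrected by the authors' caller) that the authors deposited, all below 0.01. Per the deposited sample table, single ChIP replicates gave 2 lists and their merged alignments the combined list, each against 1 merged input alignment. The deposited read counts per run were summed per library. For the aligner, the PeakSeq version and the earlier build: not given in the sources used here.

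Fits were run with statsmodels 0.14.6 and numpy 2.4.6 (Python 3.11.15), tables were handled with pandas 2.3.3, statistics came from scipy 1.17.1 and figures from matplotlib 3.10.9. Regions matched when they shared at least 1 bp. Regions of IV were compared with those of II, III, V and X. Density was fitted by quasi-Poisson regression of counts per whole 1 Mb window, taken up to the last combined region. Support and width were fitted over all 2313 regions of these 5 chromosomes with score bands (2 to 2.5, 2.5 to 3, 3 to 4, 4 to 6, above 6) and standard errors clustered by window. All tests are two-sided, with Benjamini-Hochberg adjustment over 4 chromosomes or 9 fits. Fits within IV, with under 10 windows in a group, are given by their intervals. Windows and clusters are taken as independent, although neighbours can be alike. The density, support and width fits were run on simulated lists, and their median estimates were compared with the set values. The simulations held no spread between chromosomes, so they do not cover that source of error. Wilson intervals (95%) cover counting error only.

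Regions named are the 10 highest-scoring, the widest, the strongest outside each list, the fullest fixed window of 100 kb and the closest-spaced group. Others, such as the largest score differences and the weakest and narrowest regions, were chosen after their values were seen. The members and lists were chosen with earlier results of these data known. The piRNA windows come from textbook knowledge of IV.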

Additional observations from a re-analysis of the deposited data

How the results depend on the processing

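Over the 9 fits, 75 alternative settings were run, of which 62 changed neither the sign nor whether p fell under 0.05. The odds of a call in at least 1 replicate, 1.60, lost it for scores of at least 3 (1.51), as did those for replicate 2 (1.37). With a single replicate the odds for at least 1 replicate were 1.22 and 1.60, and the value of 1.22, from replicate 1, missed the threshold. The density ratio of IV, 0.825, passed the threshold without V (0.725), which is the sparsest chromosome, and was 0.97 and 1.003 in the lists of single replicates. The centre-to-outer ratio of IV was 1.39 to 1.60 in single replicates, with the threshold missed in replicate 1, which has 114 regions on IV. In windows of 500 kb it was 1.49 (quasi-Poisson regression, n = 34 windows, p = 0.00238). Leaving out any 1 window kept it past the threshold. The width difference of 0.01, far from the threshold throughout, changed sign to −0.0236 for regions of at least 50 bp, −0.0232 without II, −0.0622 for scores of at least 3 and −0.0568 without III, and was −0.0551 to 0.00544 in single replicates. The odds of a close neighbour, 0.871, turned to 1.03 without II, and were 0.986 to 1.30 in single replicates, never past the threshold. For these reversals the cause was not tested. Replacing bands by the score itself and leaving out single windows were chosen after seeing the data. No paired analysis was possible because no list gives values of the input libraries one by one. At 873921 usable reads in replicate 1, weak regions may go uncalled, and this was not tested at equal depth.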

Other observations

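A region of IV was called in both replicates but has no combined region. It lies at IV:13549271-13549668 in replicate 1, with a score of 2.88, and at IV:13549272-13549669 in replicate 2, with 2.43, and is 398 bp wide in both. The nearest combined region, IV:13556629-13556820, begins after a gap of 6960 bp from the replicate 1 region. In the whole series, 2 replicate 1 regions with a match in replicate 2 lack a combined region, and this is 1 of them.

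The other replicate 2 regions of IV outside the combined list number 6 and are short, with widths from 1 to 47 bp and scores from 2.002 to 2.23. At 5 bp, IV:17332769-17332773 lies 40741 bp beyond the last combined region of the chromosome.

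The widest region of IV that replicate 2 did not call is IV:16491679-16492709, with 1031 bp, a combined score of 5.08 and a replicate 1 score of 3.06. It was chosen after its values were seen.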
